A study of Mus musculus with 13 samples.

Results

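Integrins and the proteins that tie them to the actin cytoskeleton were followed in glomerular RNA as a list of 39 genes, made up of 12 integrin alpha subunits, 6 beta subunits and the adaptor, signalling and partner genes around them. Members entered the tests when their level was at least 1 TPM (a transcript abundance corrected for transcript length and library total) in at least 4 of the 13 libraries. This rule kept 38 of the 39 members, and 14322 of the 35967 gene symbols in the table. *Fermt1* lay just inside it, with at least 1 TPM in 5 libraries, and *Itga11*, at most 0.435 TPM in any library, lay outside.

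Glomeruli, the filtering units of the kidney, came from wildtype Balb/c mice that each received a single intraperitoneal dose of 2 mg rabbit IgG. Control mice (n = 5) were given preimmune IgG and mice of the membranous nephropathy (MN) groups were given IgG against THSD7A, a protein of the podocyte foot process, and were taken at day 1 (n = 4) or day 5 (n = 4). Control mice of both days form 1 group, and the sources used here do not give the day of each control mouse. The study used only male mice in its MN model, whose age its methods give as 14 to 15 weeks for knockout mice and their wildtype littermates, the antibody was passively transferred rather than made by the mouse, and glomeruli were collected with magnetic beads, so each library is 1 mouse and a mixture of all glomerular cell types.

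Integrins are heterodimers of an alpha and a beta chain that bind matrix proteins outside the cell. Talins and kindlins bind the beta tail and activate the receptor, and the ILK-PINCH-parvin complex, focal adhesion kinase, paxillin, vinculin, zyxin and tensins couple it to actin. In podocytes the laminin receptor alpha 3 beta 1 holds the foot processes on the glomerular basement membrane, and dystroglycan is a further laminin receptor there, whereas alpha 8 beta 1 is known as a receptor of mesangial cells. The comparisons asked which of these genes differed from control mice at the early and the late day of the model, and which differed between the days.

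The defining markers of podocytes, endothelial cells and mesangial cells were present in every group, and no marker gene looked at was at 0 in all libraries. The summed TPM of 11 podocyte markers spanned 6871 to 9269 in control, 7268 to 9210.4 in day 1 MN and 7589 to 7941 in day 5 MN libraries. Tubular RNA differed between libraries: the sum of 15 tubular markers was 8739.6 TPM in control replicate 5 and at most 4225 in the other control libraries, against 4465 to 7819 at day 1 and 3313 to 3963 at day 5. Control replicate 5 also had the lowest TPM of *Itga8* among all 13 libraries. Fewer cells of a type and less RNA per cell cannot be told apart in bulk libraries. The listed TPM summed to between 989774 and 996064 per library, the sequencing depth behind them is unknown, and no label names a batch.

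Mean levels of the integrin and focal adhesion genes in control glomeruli ran from 0.0541 to 702 TPM. Means were highest for the actin linkers *Tns2* (702 ± 65.8 TPM, SD, n = 5), *Tns3* (614 ± 60.5) and *Tns1* (591 ± 59.5) and for *Itgb1* (636 ± 34.8), the shared beta chain of most integrins. *Itgb5* (489 ± 38.9), the tetraspanin *Cd151* (471 ± 19.9), *Itga3* (409.8 ± 17.5) and *Itga8* (409.6 ± 66.4) followed. Control libraries of neighbours in this order overlapped except between *Tns1* (528 to 657) and *Itgb5* (425 to 525) and between *Cd151* (445 to 489) and *Itga3* (386 to 435). At the other end, *Itga2* (5.67 ± 1.65), *Itgb6* (3.08 ± 1.43), *Itga10* (2.17 ± 0.441), *Fermt1* (0.664 ± 0.336) and *Itga11* (0.0541 ± 0.0685) were the lowest.

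At day 5, 6 of the 38 tested members differed from control with an adjusted p under 0.05 (limma on log2 of scaled TPM plus 0.5, with Benjamini-Hochberg adjustment over all 14322 genes), a share of 15.8% against 6.12% of all genes tested. The integrin subunits *Itgav* and *Itgb1*, the kinase *Ptk2*, the actin linker *Zyx* and the dystroglycan gene *Dag1* rose, and *Tns2* fell. So 5 of 38 members passed in the upward direction, where 4.13% of all genes did, and 1 in the downward direction, where 1.99% did. Changes were small, since the 38 log2 fold changes ran from -0.30 to 0.64 and only *Zyx* passed the adjusted p together with the study's fold change threshold of 0.5, as 3.21% of all genes did. The median log2 fold change of members was 0.13, with 27 members above 0 and 11 below, against -0.00 over all genes. By library, the median scaled log2 difference of members from the control mean was 0.16, 0.17, 0.04 and 0.07 at day 5. It was -0.03 to 0.06 in control libraries. Members above the control mean numbered 25, 25, 21 and 28 in day 5 libraries and 8 to 28 in control libraries. The day 5 counts thus lay within the control range, as did the median of day 5 replicate 3. On TPM as deposited, the ranges of day 5 and control libraries were apart for 9 members (7 higher, 2 lower), 23.7% of them, against 10.8% of all genes. *Parva* is among these, and its ranges overlapped on the scaled values. These shares are not matched for level, and the members were chosen with earlier results of these data known. With each library left out in turn, 4 to 6 members and 492 to 894 of all genes passed, and the latter moved most without day 5 replicate 2 (492) or day 5 replicate 1 (545), each with 4 members, from 876. Over all alternatives 4 to 9 members passed.

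**Figure D1:**
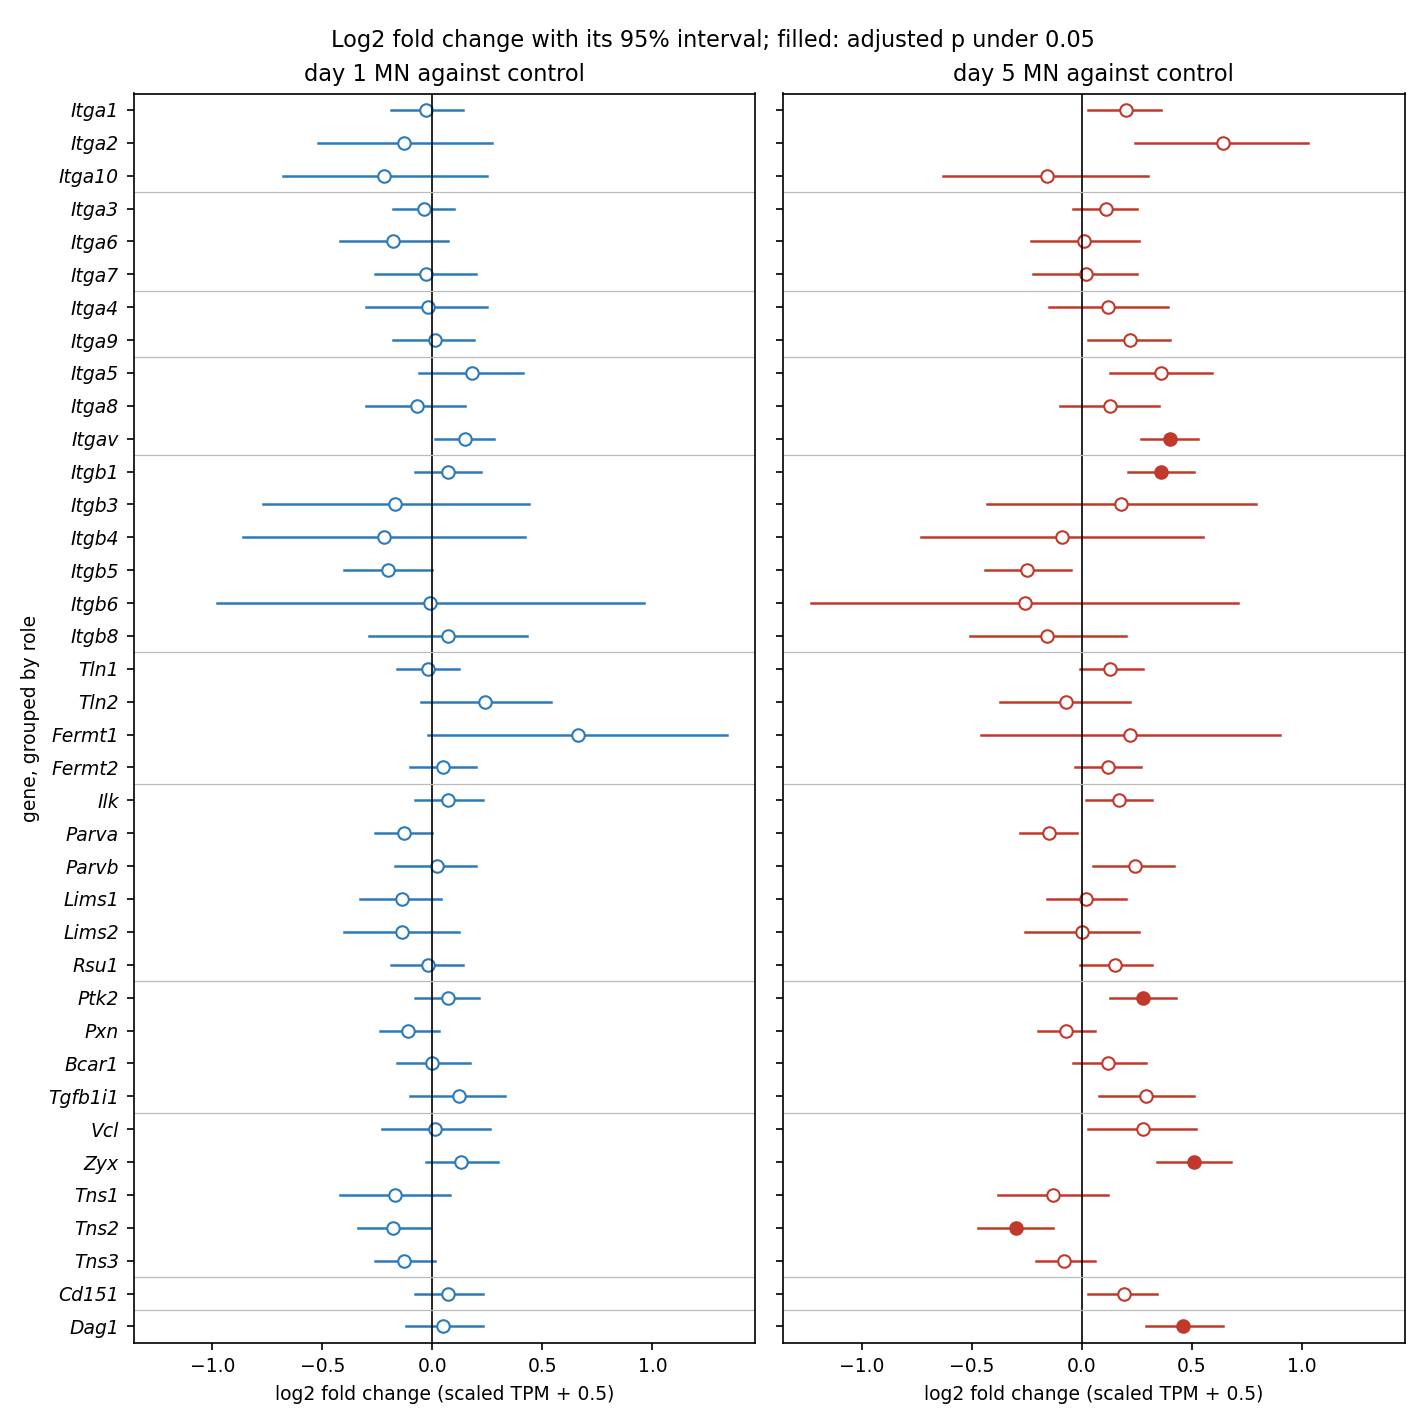
Log2 fold change against control (x axis, on the scale of log2 of scaled TPM plus 0.5) of the 38 tested members (y axis, grouped by role between grey lines) at day 1 (left, blue) and day 5 (right, red), with 95% intervals from the limma fit. Filled points have an adjusted p under 0.05: there are 0 at day 1 and 6 at day 5, 5 of them to the right of 0.

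Among alpha subunits, *Itgav* passed. It encodes the alpha v chain, which binds the RGD motif of vitronectin, fibronectin and latent TGF-beta together with several beta chains. Its TPM was 91.3, 84.9, 103, 94.3 and 96.7 in the 5 control libraries, 97.8, 97.7, 99.9 and 107 at day 1, and 114, 117, 127 and 127 at day 5. All day 5 libraries lay above all control and day 1 libraries, while day 1 and control libraries overlapped. At day 5 its log2 fold change was 0.40 (SE 0.06, adjusted p = 0.00125, limma), an increase of 32.3%. The gene lies on chromosome 2 of GRCm39 from 83554403 to 83637260 on the plus strand.

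Of the other RGD-binding chains, *Itga5*, the fibronectin receptor chain, had a day 5 log2 fold change of 0.36 that did not pass (SE 0.11, adjusted p = 0.0705, limma). Its TPM was 28.7, 36.6, 23.2, 29.2 and 22.5 in control and 32.3, 35.5, 37.2 and 33.9 in day 5 libraries, so that control replicate 2 lay within the day 5 range. It passed without control replicate 2, with library weights and with a tubular score added to the fit. *Itga8*, the nephronectin receptor chain, was measured at 439, 434, 471, 406 and 298 TPM in control, 379, 353, 363 and 397 at day 1, and 407, 481, 439.8 and 402 at day 5. Control replicate 5 was the lowest of these, and the day 5 and control libraries overlapped (log2 fold change 0.13, SE 0.10, adjusted p = 0.559, limma). Without control replicate 5 the log2 fold change was 0.03.

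None of the 3 tested laminin-binding alpha chains passed at either day. *Itga3*, the main podocyte alpha chain, gave 412, 406, 435, 409.7 and 386 TPM in control, 361, 422, 394 and 369 at day 1, and 458, 442, 415 and 408 at day 5. The groups overlapped throughout, with a log2 fold change of 0.11 at day 5 (95% interval -0.04 to 0.25, adjusted p = 0.413, limma) and -0.04 at day 1 (-0.18 to 0.10, adjusted p = 0.854). *Itga6* (0.01) and *Itga7* (0.02) had day 5 log2 fold changes near 0, with intervals of -0.23 to 0.26 and -0.22 to 0.25.

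Among collagen-binding chains, *Itga2* had the highest day 5 log2 fold change of all members, 0.64 (SE 0.18), but did not pass (adjusted p = 0.0607, limma). Its TPM was 6.24, 4.31, 8.21, 4.20 and 5.41 in control, 5.79, 3.62, 4.50 and 5.83 at day 1, and 8.46, 8.61, 9.24 and 8.29 at day 5. Day 5 libraries lay above all others, and control replicate 3 came close to them. Without control replicate 3 the log2 fold change was 0.77 and the adjusted p 0.0175 (limma). *Itga1*, a collagen IV receptor chain, had a log2 fold change of 0.20 (adjusted p = 0.170) and *Itga10* one of -0.16 (adjusted p = 0.751). *Itga11*, left out by the rule on low values, was listed at 0.0663, 0.0196, 0, 0.168 and 0.0160 TPM in control, at 0.0176, 0, 0.0791 and 0.0701 at day 1, and at 0.354, 0.116, 0.435 and 0.340 at day 5. These levels are too low to compare at an unknown depth. The related chains *Itga4* and *Itga9* did not pass (log2 fold changes 0.12 and 0.22 at day 5).

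Of 6 beta chains, *Itgb1*, the partner of most alpha chains listed here, rose at day 5. Its TPM was 631, 641, 689.8, 626 and 593 in control, 619.9, 655, 641 and 667 at day 1, and 851, 853, 754 and 729 at day 5. The day 5 libraries were all above the highest control library, and day 1 libraries lay within the control range. The log2 fold change was 0.36 at day 5 (SE 0.07, adjusted p = 0.00787, limma) and 0.07 at day 1 (SE 0.07, adjusted p = 0.729). *Itgb1* lies on chromosome 8 from 129411876 to 129460618 on the plus strand.

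*Itgb5*, which pairs with alpha v, differed in the opposite direction without passing. Control libraries had 509, 425, 525, 483 and 502 TPM, day 1 libraries 366, 420.3, 386 and 481, and day 5 libraries 425, 403, 395 and 383. Apart from control replicate 2, control libraries lay above all MN libraries as deposited (log2 fold change -0.25 at day 5, adjusted p = 0.142, and -0.20 at day 1, adjusted p = 0.394, limma). The margin was small between control replicate 4 (483) and day 1 replicate 4 (481), and their order was reversed on the scaled values. At day 5 *Itgb5* passed with quantile normalization. The other beta chains were low: *Itgb8* ranged from 12.9 to 24.0 TPM over all libraries, *Itgb4* from 3.41 to 9.59 and *Itgb6* from 0.836 to 6.85, *Itgb3* had 7.67 ± 1.69 TPM in control and 8.69 ± 2.92 at day 5, and none of them passed.

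**Figure D2:**
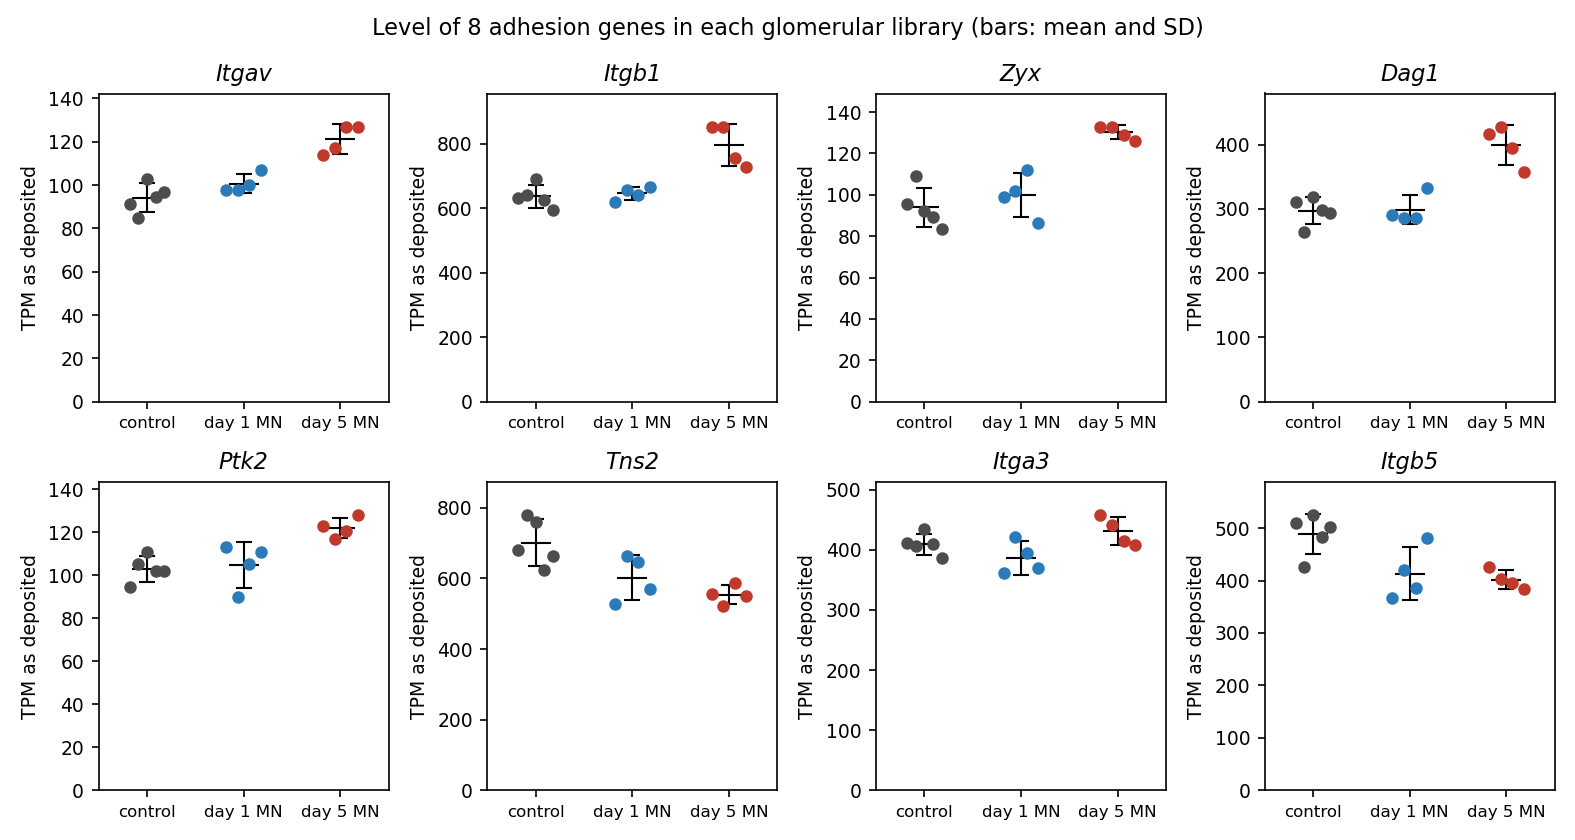
TPM as deposited (y axis, from 0) of 8 members in each library of the 3 groups (x axis, n = 5, 4 and 4); points are libraries, lines the mean and SD. The 4 day 5 MN points lie above all control points for *Itgav*, *Itgb1*, *Zyx*, *Dag1* and *Ptk2* and below them for *Tns2*, while *Itga3* and *Itgb5* overlap.

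With these values the makeup of the beta chain transcripts shifted. *Itgb1* took 54.8% ± 2.51 (SD, n = 5) of the summed TPM of the 6 beta chains in control, 59.2% ± 2.13 (n = 4) at day 1 and 64.6% ± 1.39 (n = 4) at day 5. *Itgb5* took 42.0% ± 1.93, 37.7% ± 2.07 and 32.6% ± 0.927. The lowest day 5 share of *Itgb1* (63.4%) was above the highest day 1 (61.0%) and control (58.8%) share. The ratio of *Itgb1* to *Itgb5* was 1.18 to 1.51 in control, 1.39 to 1.69 at day 1 and 1.91 to 2.12 at day 5. Ratios and shares were looked at after the values were seen and are given as a description with no test.

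The alpha chain makeup moved less. *Itga3* and *Itga8* took 35.3% ± 2.06 and 34.9% ± 2.91 of the summed alpha TPM in control, and 34.3% ± 2.31 and 34.4% ± 1.48 at day 5. *Itgav* took 8.12% ± 1.01 in control, 9.17% ± 0.335 at day 1 and 9.66% ± 0.685 at day 5, with overlapping libraries. The ratio of *Itga3* to *Itgb1*, the chains of the podocyte laminin receptor, was 0.630 to 0.654 in control, 0.552 to 0.645 at day 1 and 0.519 to 0.560 at day 5, so day 5 and control libraries did not overlap. Summed alpha and beta chain TPM were 1165 ± 101 and 1162 ± 61.6 in control and 1258 ± 53.9 and 1232 ± 76.7 at day 5, with overlapping libraries.

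**Figure D3:**
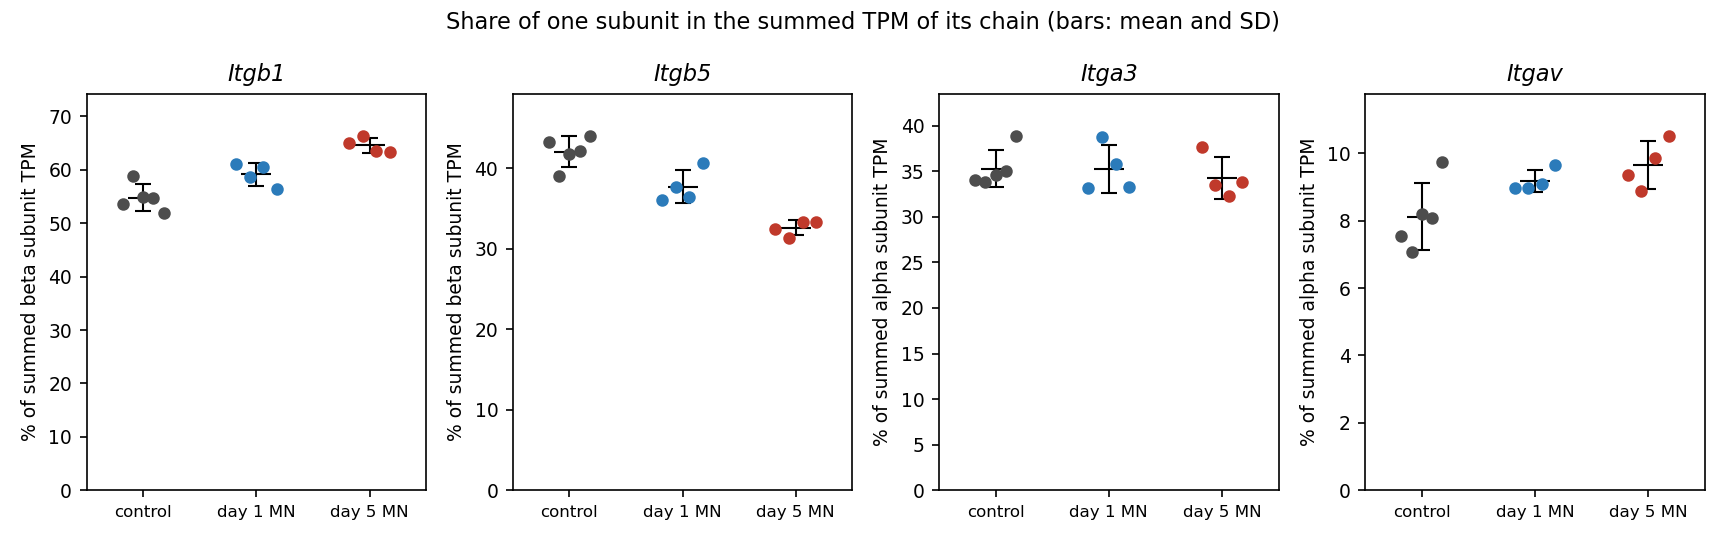
Share (y axis, %, from 0) of *Itgb1* and *Itgb5* in the summed TPM of the 6 beta chains and of *Itga3* and *Itgav* in that of the 12 alpha chains, per library of the 3 groups (x axis); points are libraries, lines the mean and SD. Day 5 MN libraries lie above all others for *Itgb1* (63.4% to 66.4%) and below all others for *Itgb5* (31.3% to 33.3%).

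The actin linkers split by direction. *Zyx*, which encodes zyxin, a protein recruited to adhesions and actin fibres under tension, had 95.4, 109, 92.2, 89.3 and 83.5 TPM in control, 99.1, 102, 112 and 86.6 at day 1, and 133, 133, 129 and 126 at day 5. Day 5 libraries were tightly grouped and above all others. The log2 fold change was 0.508 (SE 0.08, adjusted p = 0.00143, limma), an increase of 42.2%, which is close to the fold change threshold of 0.5. *Zyx* kept an adjusted p of at most 0.00840 when any of the 13 libraries was left out, but its log2 fold change was at or below 0.5 without control replicate 4, control replicate 5, day 5 replicate 1 or day 5 replicate 2, with 0.48 as the lowest value. It lies on chromosome 6 from 42301575 to 42339894 on the plus strand, and its exons overlap the annotated genes *Epha1* and *Gm44284*. Exons of *Itgav* (*Gm13684*), *Ptk2* (*1700085D07Rik*, *Gm49066*) and *Tns2* (*Gm53915*, *Spryd3*) also overlap annotated genes, while those of *Itgb1* and *Dag1* do not.

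*Tns2* encodes tensin 2, a linker of integrin tails to actin that is known for its high level in podocytes. Its TPM was 682, 779.9, 759.9, 624 and 664 in control, 529, 664, 648 and 569 at day 1, and 556, 523, 588 and 551 at day 5. Day 5 libraries lay below all control libraries, and day 1 libraries overlapped with both groups. The log2 fold change at day 5 was -0.30 (SE 0.08, adjusted p = 0.0369, limma). With each library left out in turn the log2 fold change stayed between -0.34 and -0.27, but the adjusted p was above 0.05 (up to 0.116) without each of the 4 day 5 libraries and without control replicate 1, 2, 3 or 5. *Tns1* (-0.13, adjusted p = 0.603) and *Tns3* (-0.08, adjusted p = 0.562) did not pass.

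*Vcl*, which encodes vinculin, had 232, 268, 251, 197 and 169 TPM in control, 204, 201, 249 and 211 at day 1, and 244, 288, 241 and 273 at day 5. Day 5 and control libraries overlapped, with control replicate 5 the lowest (log2 fold change 0.28, SE 0.11, adjusted p = 0.191, limma). With a score of tubular genes added to the fit, the log2 fold change was 0.28 and the adjusted p 0.0270.

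Of the signalling genes, *Ptk2*, which encodes focal adhesion kinase, rose at day 5. Its TPM was 94.4, 105, 111, 102 and 102 in control, 113, 89.7, 105 and 111 at day 1, and 123, 117, 120.5 and 128 at day 5. All day 5 libraries lay above all others by a small margin (log2 fold change 0.28, SE 0.07, adjusted p = 0.0266, limma). With each library left out in turn the log2 fold change stayed between 0.25 and 0.31, but the adjusted p was above 0.05 (up to 0.0885) without control replicate 1 or 4 or day 5 replicate 1, 2 or 4. The scaffold genes *Pxn* (-0.07) and *Bcar1* (0.12) had adjusted p of 0.603 and 0.399, and *Tgfb1i1*, the paxillin relative Hic-5, had a log2 fold change of 0.29 and an adjusted p of 0.113, and passed with a tubular score added to the fit.

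*Dag1* encodes dystroglycan, which binds laminin, agrin and perlecan and is not an integrin. It had 311, 264, 319, 298 and 293 TPM in control, 291, 285, 286 and 332 at day 1, and 417, 428, 394 and 358 at day 5. All day 5 libraries lay above all others, and day 1 and control libraries overlapped. Its log2 fold change was 0.46 at day 5 (SE 0.08, adjusted p = 0.00357, limma) and 0.05 at day 1 (SE 0.08, adjusted p = 0.834). Without day 5 replicate 4, the lowest of that group, the day 5 value was 0.52, above the threshold of 0.5. *Dag1* lies on chromosome 9 from 108081833 to 108152333 on the minus strand.

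None of the 6 genes of the ILK-PINCH-parvin complex passed at either day. *Ilk*, the integrin-linked pseudokinase, had 270.3, 292, 255, 250.4 and 232 TPM in control, 256, 269.7, 268 and 263 at day 1, and 302, 302, 263 and 276 at day 5. Its groups overlapped (log2 fold change 0.17, SE 0.07, adjusted p = 0.182, limma). Its parvin partners lay on opposite sides of control: *Parva* was 256 to 285 TPM in control and 235 to 250.1 at day 5, and *Parvb* 38.2 to 46.8 and 47.2 to 51.0. As deposited, neither pair of ranges overlapped, but on the scaled values *Parva* in control replicate 2 lay within the day 5 range. Neither gene passed (log2 fold change -0.15, adjusted p = 0.177, and 0.24, adjusted p = 0.141, limma), except *Parva* with quantile normalization. The PINCH genes *Lims1* (0.02) and *Lims2* (0.00) had day 5 log2 fold changes near 0, and *Rsu1*, a PINCH-binding suppressor, had 0.15 (adjusted p = 0.295).

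The activators did not pass either. *Tln1*, the main talin gene, had 201, 232, 205, 195 and 173 TPM in control, 179.7, 196, 206 and 186 at day 1, and 209, 215, 208 and 226 at day 5, within the range of the control libraries (log2 fold change 0.13, SE 0.07, adjusted p = 0.279, limma). *Fermt2*, the kindlin of most adherent cells, had a day 5 log2 fold change of 0.12 (adjusted p = 0.389), *Tln2* one of -0.07 (adjusted p = 0.837) and *Fermt1* one of 0.22 (adjusted p = 0.775). *Cd151*, the tetraspanin that binds alpha 3 beta 1, was 445 to 489 TPM in control and 477 to 569 at day 5 (0.19, adjusted p = 0.153), and passed without day 5 replicate 3.

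**Figure D4:**
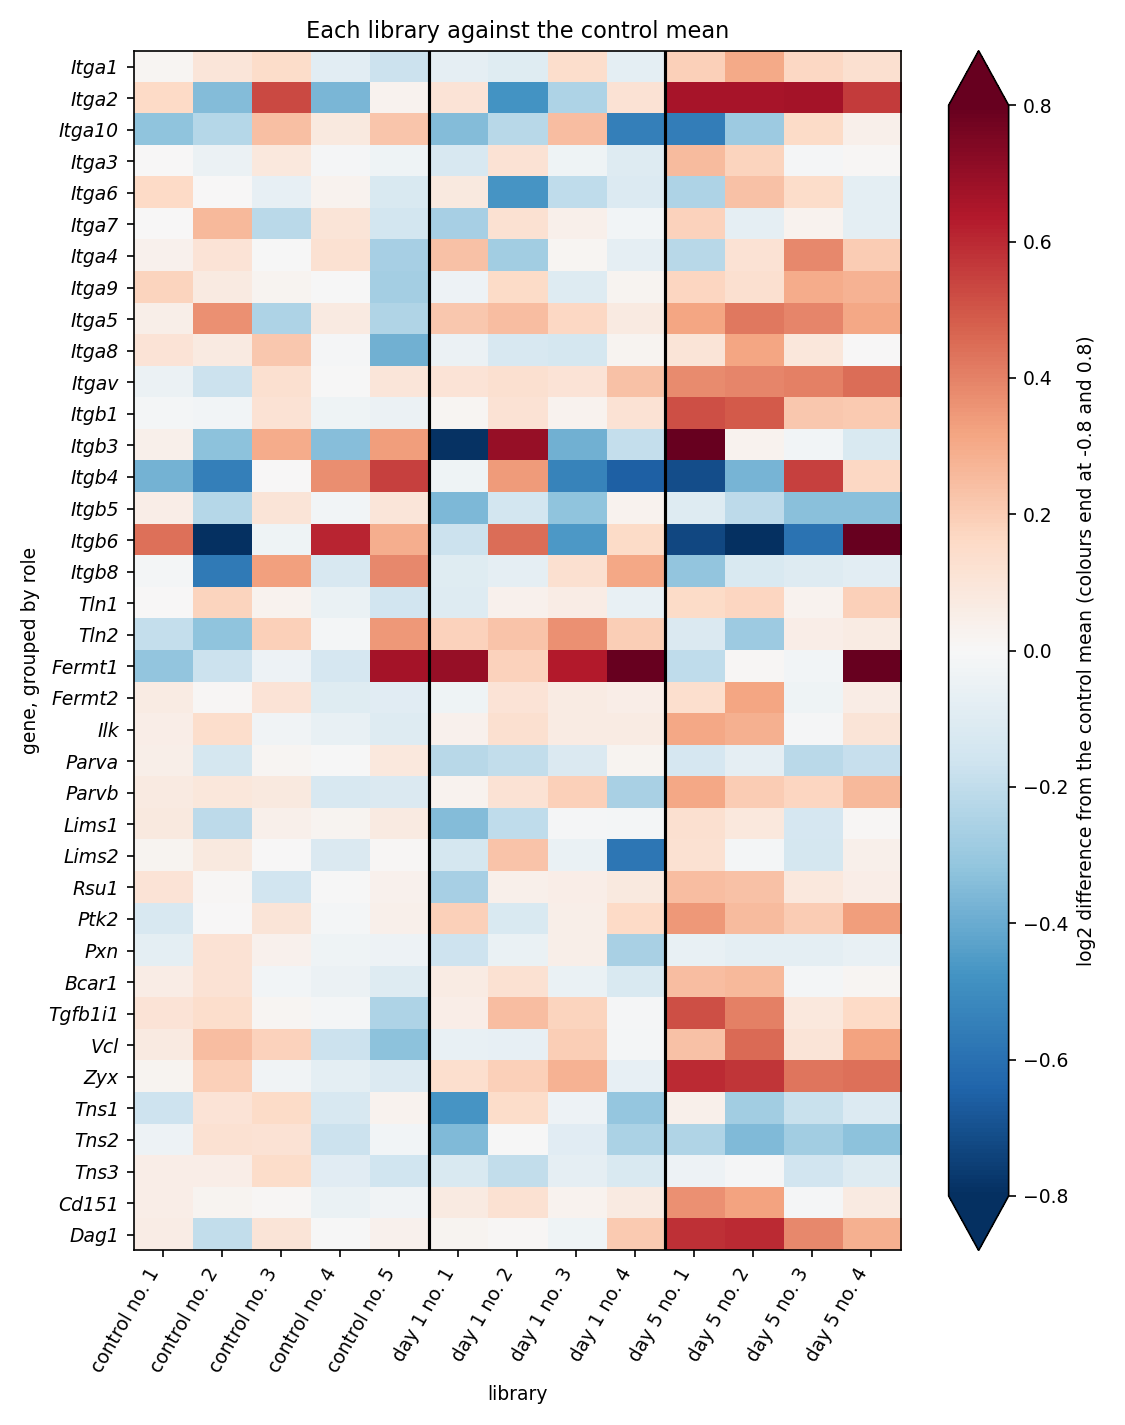
Log2 difference of each library (columns, separated by group) from the control mean for the 38 tested members (rows, grouped by role); red is above and blue below the control mean, with colours ending at -0.8 and 0.8. The rows of *Itgav*, *Itgb1*, *Ptk2*, *Zyx* and *Dag1* are red in all 4 day 5 MN columns and *Tns2* is blue in all 4, while the low-level genes *Itgb3*, *Itgb4*, *Itgb6* and *Fermt1* vary within every group.

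At day 1, 0 of 38 members had an adjusted p under 0.05 (limma), where 0.133% of all genes did, and 0 also exceeded the fold change threshold, where 0.0908% did. At an unadjusted p under 0.05 there were 3 members, *Itgav* (log2 fold change 0.15), *Tns2* (-0.18) and *Itgb5* (-0.20), 7.9% of members against 12.6% of all genes. The libraries of day 1 MN and control overlapped for every member, while 4.22% of all genes did not overlap. The median log2 fold change was -0.02, with 17 members above 0 and 21 below. The largest value was that of *Fermt1* at 0.66 (95% interval -0.02 to 1.34, adjusted p = 0.410), a gene at 0.410 to 1.93 TPM. All 15 tubular markers had positive log2 fold changes at day 1 (median 0.70, 0 passed), and the part of tubular RNA in the day 1 values of *Fermt1* was not tested.

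Between day 5 and day 1, *Dag1* (log2 difference 0.41, SE 0.09, adjusted p = 0.0219, limma) and *Zyx* (0.37, SE 0.08, adjusted p = 0.0298) were higher at day 5, 2 of 38 members where 2.38% of all genes passed. None of the members also exceeded a log2 difference of 0.5, where 1.81% of all genes did. *Itgav* (0.26, adjusted p = 0.0525), *Itga2* (0.76, adjusted p = 0.0596) and *Itgb1* (0.29, adjusted p = 0.0613) did not pass, though *Itgav* did in 7 of 24 alternatives and *Itga2* and *Itgb1* in 4 each. On TPM as deposited, libraries of both days did not overlap for 11 members, 28.9% of members against 11.0% of all genes. Of these, 10 were higher at day 5 and *Tln2* was lower. On the scaled values the libraries of *Tln1*, *Itga8* and *Rsu1* overlapped. With a score of tubular genes added to the fit, the difference was 0.18 for *Zyx* (adjusted p = 0.517, limma) and 0.51 for *Dag1* (adjusted p = 0.0541), and *Itgav* was the only member that passed. The tubular marker sums of the days did not overlap (4465 to 7819 TPM at day 1, 3313 to 3963 at day 5). This fit therefore cannot separate the score from the day well. With each library left out in turn the difference stayed between 0.31 and 0.42 for *Zyx* and between 0.36 and 0.47 for *Dag1*. *Zyx* did not pass without each of the 4 day 5 libraries or without day 1 replicate 1, 2 or 4 (adjusted p up to 0.109), and *Dag1* did not without day 5 replicate 1 or 2 or day 1 replicate 1, 2 or 3 (up to 0.0907). In these fits 0 to 4 members passed, and the number of all genes that passed went from 341 to 590 without control replicate 5, to between 173 and 215 without each of the 4 day 5 libraries and to 227 without day 1 replicate 4. *Itga2* was called, with an adjusted p down to 0.0318, without control replicate 2 or 3.

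The 250 bases upstream of the annotated start of the canonical transcript are shown for the 4 members that passed at day 5 under all 24 alternatives, to place what they share in letters beside how they moved. Each is written 5′ to 3′ on the strand of its gene (GRCm39), at chr2:83554153-83554402 (plus) for *Itgav*, chr8:129411626-129411875 (plus) for *Itgb1*, chr6:42326450-42326699 (plus) for *Zyx* and chr9:108141165-108141414 (minus) for *Dag1*. Capitals mark matches on either strand to GGGCGG (the core read by SP and KLF factors), TGANTCA (AP-1), GGAATG (TEAD), GCGNGGGCG (EGR), CCAAT (NF-Y) or the SRF CArG box, none of which is evidence of binding.
Itgav: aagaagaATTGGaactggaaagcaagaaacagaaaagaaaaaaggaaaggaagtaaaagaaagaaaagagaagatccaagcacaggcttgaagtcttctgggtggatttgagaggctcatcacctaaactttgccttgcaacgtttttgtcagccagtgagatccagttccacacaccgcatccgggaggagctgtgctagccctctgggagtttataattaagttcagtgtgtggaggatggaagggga
Itgb1: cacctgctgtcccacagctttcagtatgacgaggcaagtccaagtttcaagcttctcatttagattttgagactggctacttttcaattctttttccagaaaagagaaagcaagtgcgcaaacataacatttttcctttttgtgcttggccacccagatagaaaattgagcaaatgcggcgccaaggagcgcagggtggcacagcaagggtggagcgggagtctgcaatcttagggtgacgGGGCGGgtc
Zyx: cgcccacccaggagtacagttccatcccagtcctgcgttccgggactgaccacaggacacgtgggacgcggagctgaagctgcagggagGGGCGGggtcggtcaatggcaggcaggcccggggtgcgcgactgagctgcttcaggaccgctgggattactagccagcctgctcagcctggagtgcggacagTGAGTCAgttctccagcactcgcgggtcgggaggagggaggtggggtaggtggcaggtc
Dag1: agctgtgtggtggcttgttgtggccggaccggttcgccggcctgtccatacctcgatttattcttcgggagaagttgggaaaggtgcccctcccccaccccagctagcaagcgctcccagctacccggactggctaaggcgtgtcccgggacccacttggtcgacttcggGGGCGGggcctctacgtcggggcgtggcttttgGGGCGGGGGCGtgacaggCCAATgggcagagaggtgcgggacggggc

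These 4 windows shared no motif. GGGCGG was found in *Itgb1*, *Zyx* and *Dag1*, where *Dag1* held it at 2 places and the nearer one overlapped its GCGNGGGCG match, and also in the window of *Ptk2*. *Itgav* held only CCAAT, read on the other strand as ATTGG, and *Zyx* held the AP-1 letters TGAGTCA between 59 and 53 bases before the start. No searched motif was in the window of *Tns2*. Over the 38 tested members, GGGCGG was in 22 windows (57.9%) against 36.3% of 21738 promoters of that length, and the median GC content of the windows was 58.6% against 53.2%. Those promoters are of protein-coding genes whether or not they passed the rule on TPM. They are not matched to the members by level, so these shares do not show a trait of adhesion genes. The other motifs were in 10 windows for CCAAT (36.5% of all promoters), 6 for GGAATG (12.1%), 2 for TGANTCA (6.2%), 2 for GCGNGGGCG (4.5%) and 2 for the CArG box (1.4%), the last in *Vcl* and *Itgb6*.

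Further focal adhesion genes outside the list moved in part. Of 69 tested, 12 passed at day 5 (17.4%), 11 of them upward, with a median log2 fold change of 0.09. Over all genes 6.12% passed, 4.13% upward, and the median was -0.00. *Evl* (0.51, adjusted p = 0.0262, limma), an actin polymerisation factor, and *Csrp1* (0.43, adjusted p = 0.0335), a LIM protein that binds zyxin, rose. The tetraspanin *Cd9* (0.35, adjusted p = 0.00743), the actin crosslinker *Actn1* (0.31, adjusted p = 0.0406) and the exchange factor *Arhgef7* (0.31, adjusted p = 0.0200) rose as well. *Pak1*, a kinase downstream of Rac and Cdc42, fell from a mean of 185 TPM to 122 (-0.56, adjusted p = 0.0178). At day 1, 0 of the 69 passed.

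Genes for the matrix ligands of these receptors were higher at day 5 for 37 of 39 tested, where 49.3% of all genes were. Their median log2 fold change was 0.38, and 10 passed (25.6%, against 6.12% of all genes), all upward. Those with the largest log2 fold changes were *Nid2* (0.91, adjusted p = 5.0e-05, limma), *Tnc* (0.87, adjusted p = 0.0117), *Col4a1* (0.85, adjusted p = 0.0191), *Col4a2* (0.85, adjusted p = 0.0403), *Col4a5* (0.71, adjusted p = 0.00984) and *Thbs2* (0.70, adjusted p = 8.4e-04). Nidogen 2 and the collagen IV chains are basement membrane components, tenascin C is a ligand of alpha v and alpha 9 integrins, and thrombospondin 2 is a matricellular glycoprotein. Mean TPM of *Nid2* was 60.5 in control, 66.9 at day 1 and 110.2 at day 5, and that of *Col4a1* was 291, 309.6 and 505. At day 1, 0 of the 39 passed.

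Markers of other cells moved beside the day 5 values of the adhesion genes. The 4 proliferation markers all rose, with a sum of 11.2 to 21.1 TPM in control and 76.7 to 118 at day 5. Of 5 smooth muscle and renin genes only *Tagln* passed (1.30, adjusted p = 6.4e-04, limma), with a sum over the list of 431 to 794 TPM in control and 780.1 to 1354 at day 5. All 5 had log2 fold changes above 0 (median 0.46), where 49.3% of all genes did. Of 11 podocyte markers *Synpo* (-0.46, adjusted p = 0.00197) and *Cd2ap* (-0.29, adjusted p = 0.0117) fell and the rest did not pass, with a median of -0.18. *Emcn* of 8 endothelial markers (0.29, adjusted p = 0.0127) and *Serpine2* of 6 mesangial markers (0.42, adjusted p = 0.0113) rose, and no others of these lists passed. All 8 endothelial markers had log2 fold changes above 0 (median 0.20), as did 4 of the 6 mesangial markers (median 0.07). Of 4 tested parietal epithelial markers, *Cldn1* (1.08, adjusted p = 0.00360) and *Akap12* (0.29, adjusted p = 0.0404) rose and *Krt7* fell (-0.89, adjusted p = 0.00145). None of 7 tested leukocyte markers passed, with a median of 0.19 and a sum over the 10 listed of 26.9 to 46.0 TPM in control and 27.7 to 52.3 at day 5. The part of cell makeup in the changes of *Itgav*, *Itgb1*, *Zyx*, *Dag1*, *Ptk2* and *Tns2* was not tested, except that all 6 passed with a tubular score added to the fit.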

How the data were processed

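RNA of isolated glomeruli was sequenced from 13 mice, 1 library per mouse (150 bp paired-end reads per the study's methods). The authors quantified reads with kallisto 0.46.2 against GRCm39, after FastQC 0.11.9 and Trimmomatic 0.39 per the labels, and deposited TPM, 1 value per gene symbol and library. TPM are scaled to a common total and hold no depth, so no counting interval is given. Whether reads were assigned by strand is not given in the sources used here, so overlapping genes may share reads.

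Each library's TPM was divided by its median-of-ratios factor (0.954 to 1.04, over 15772 genes), and log2 was taken after adding 0.5. This scale understates changes of low genes. Levels, ranges and overlaps of libraries are of TPM as deposited, before this scaling, unless named as scaled values. All 3 groups entered 1 limma 3.58.1 fit with a mean-variance trend (R 4.3.3), with Benjamini-Hochberg adjustment over the 14322 genes that reached 1 TPM in 4 or more libraries. The study's DESeq2 test needs counts and was not used. A gene passed at an adjusted p under 0.05, and was called when its absolute log2 fold change also exceeded 0.5. The procedure was run on simulated data with independent noise for each gene. Those data held no difference shared by many genes of a library, such as tubular RNA, so such differences were not tested.

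The members and lists were chosen with earlier results of these data known. Members named in full are those that passed in a comparison, those called under any alternative, and *Itga3*, *Itgb1*, *Itga8*, *Itgav*, *Ilk*, *Tln1*, *Vcl* and *Dag1*. Other members are given by level, range and counts, and other genes only where they passed, at most 6 a list by size of change. *Itga5*, *Itgb5*, *Parva*, *Parvb* and *Itga11* were described at length after their values were seen. Loci and windows of 250 bases come from the GENCODE annotation of GRCm39, read with pysam 0.24.0. Plots were drawn with matplotlib 3.10.9. Alternatives covered the pseudocount, scaling, filter, trend, groups in the fit, replicate block, library weights, a tubular score as covariate, the fold threshold and each library left out.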

Additional observations from a re-analysis of the deposited data

Results flagged for a closer look

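Within-group outliers were looked for by Dixon's rule in 114 combinations of member and group, and 9 (7.89%) exceeded the 95% critical value, where chance gives about 1 in 20. *Dag1* in day 1 replicate 4 (332 TPM, the others 285 to 291) is the only one that touches a gene that passed. *Parva* (256) and *Lims1* (81.3) were lowest in control replicate 2, against at least 277 and 93.0 in the other control libraries. *Itga1* (35.6) and *Tln2* (8.91) were highest in day 1 replicate 3, against at most 29.9 and 7.79 in the others. *Itgb3* was highest in day 5 replicate 1 (13.04, the others up to 7.55), and *Itgb6* in day 5 replicate 4 (6.85, the others up to 1.70). *Fermt1* was highest in control replicate 5 (1.25, the others up to 0.603) and in day 5 replicate 4 (1.93, the others up to 0.627).

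*Zyx* and *Dag1* were higher in day 5 than in day 1 libraries (limma, log2 differences 0.37 and 0.41, with adjusted p of 0.0298 and 0.0219). They passed in 15 and 17 of 24 alternatives, and neither did with a tubular score added to the fit. Controls were pooled over the days. The test therefore sets day 5 against day 1 libraries and cannot compare effects against a control of each day.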

How the results depend on the processing

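At day 5, *Itgav*, *Itgb1*, *Zyx* and *Dag1* had an adjusted p under 0.05 (limma) in 24 of 24 alternatives, *Ptk2* in 17 and *Tns2* in 13. The members called against control numbered 1 and became 0 with TPM as deposited, with quantile normalization and with the replicate number as a block, 2 without a filter on low TPM (*Itga11* joined), 6 with the adjusted p alone, and 0 to 2 when each library was left out. The log2 fold change of *Zyx* lies next to the threshold in all of these (0.47 to 0.56). Members called between the days numbered 0 and became 1 with quantile normalization and with only the 2 compared groups (*Itga2*), 2 with the adjusted p alone, and 0 to 1 when each library was left out. At day 1 the number was 0 in every alternative, while that of all genes with an adjusted p under 0.05 went from 19 to 185 with the replicate block, 2 with only the 2 compared groups, 0 with the tubular score, and 5 to 284 with a library left out (284 without control replicate 5). The median log2 fold change of members at day 5 stayed between 0.09 and 0.17. The alternative values of members named in full at day 5 against control, and of *Zyx* and *Dag1* between the days, were also counted. By an adjusted p under 0.05 alone (limma), 300 kept their side, 34 no longer passed, 2 newly passed and 0 reversed in sign.

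Same-numbered libraries did not deviate together (12 correlations from -0.06 to 0.09). This gave no sign that the numbers pair the mice, though groups this small cannot settle it. With the block, 0 members were called at day 5 and 4 passed. Only control has a replicate 5, so the block in effect also leaves that library out, and it is not separate from that alternative. TPM hold no depth, which limits what can be said of low genes such as *Itga11* and *Fermt1*.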
